A study of Homo sapiens with 2 samples.

Results

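Nuclear import and export receptors carry proteins and RNA through the pores of the nuclear envelope. The 10 genes examined here were KPNA1, KPNA2, KPNA3, KPNA4 and KPNA6 (importin alpha adaptors), KPNB1, IPO5 and IPO7 (importin beta carriers), and XPO1 and CSE1L (exportins). Each was found by assigning the long-read gene loci to GENCODE genes by their largest exonic overlap on the same strand and keeping the loci with these symbols, which gave 10 of the 12178 genes listed in the edit tables. All listed positions of these loci in both libraries were taken, 456 distinct sites in all.

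The cells were HEK293T, a human embryonic kidney line that the labels give as HEK293XT, and the study describes fixing such cells before treatment. In the RBFOX2 library (the RBFOX2 label marks the antibody, not a change to the cells), a rabbit antibody against RBFOX2, a splicing regulator that binds UGCAUG, directed a purified fusion of the cytidine deaminase APOBEC1 and an anti-rabbit nanobody to its target, so that nearby cytosines could be converted to uracil. The enzyme-only library, called the control below, came from the same cell line and fusion without that antibody and measures background editing. Each group was 1 library of full-length cDNA sequenced on the PacBio platform, so differences between the libraries have no replicate check, no p-value was computed, and intervals are exact Clopper-Pearson 95% intervals for counting error only.

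Importin alpha adaptors recognise the classical nuclear localisation signal of a cargo protein and hand it to KPNB1, which docks at the pore. Other importin beta carriers bind cargo directly, and exportins take cargo out of the nucleus together with the small GTPase Ran. CSE1L closes the cycle by returning the importin alpha adaptors to the cytoplasm.

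The sequences that bear on the comparison with the RBFOX2 motif are the UGCAUG elements in the exons of the XPO1 isoform models, which hold more of them than those of any other member, and the elements of KPNA3, IPO5 and IPO7 that had a listed site within 50 nt. Each line gives 29 bases of the transcribed strand of hg38, with T for U, and capitals mark TGCATG and every cytosine listed in either library. The bases after the element in the exon 15 line and the first bases of the exon 23 line are intronic.
XPO1 exon 14, coding, chr2:61492593-61492621 (minus): tagtggagcaaTGCATGaagaggacgaaa
XPO1 exon 15, coding, chr2:61492313-61492341 (minus): gttcgaattcaTGCATGgtaaatctcttt
XPO1 exon 23, coding, chr2:61482513-61482541 (minus): aggtttaaCaaTGCATGcatCaattCttg
XPO1 exon 25, 3'UTR, chr2:61478596-61478624 (minus): tttatttagttTGCATGaagttgaaaatt
KPNA3 exon 17, 3'UTR, chr13:49701590-49701618 (minus): gtaaatgcataTGCATGatttCctaaaCt
IPO5 exon 29, 3'UTR, chr13:98023992-98024020 (plus): tttaggggtctTGCATGtCagcaagtgat
IPO7 exon 25, 3'UTR, chr11:9446516-9446544 (plus): ctCttcctaacTGCATGttgaaaaataag

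The members held 230 listed sites on 5787 gene reads in the RBFOX2 library and 259 on 4988 gene reads in the control, and 33 of these sites were listed in both. Over the 8203 genes listed in both libraries the median ratio of gene reads, RBFOX2 over control, was 1.10. A site enters the tables when its converted reads exceed 0.002 of the reads of its gene, so that from 500 gene reads upward at least 2 converted reads were needed. KPNA2 and KPNB1 were above that depth in both libraries, IPO5 in the RBFOX2 library alone, and the other members were below it. The markers of cell identity included 4 kidney development genes, of which PAX8 and LHX1 were listed in neither library. PAX2 was listed in the control alone, on 3 reads. Of the genes of differentiated kidney, 0 of 5 were listed. A listing says that a gene has an edit site and not how strongly it is expressed.

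**Figure D1:**
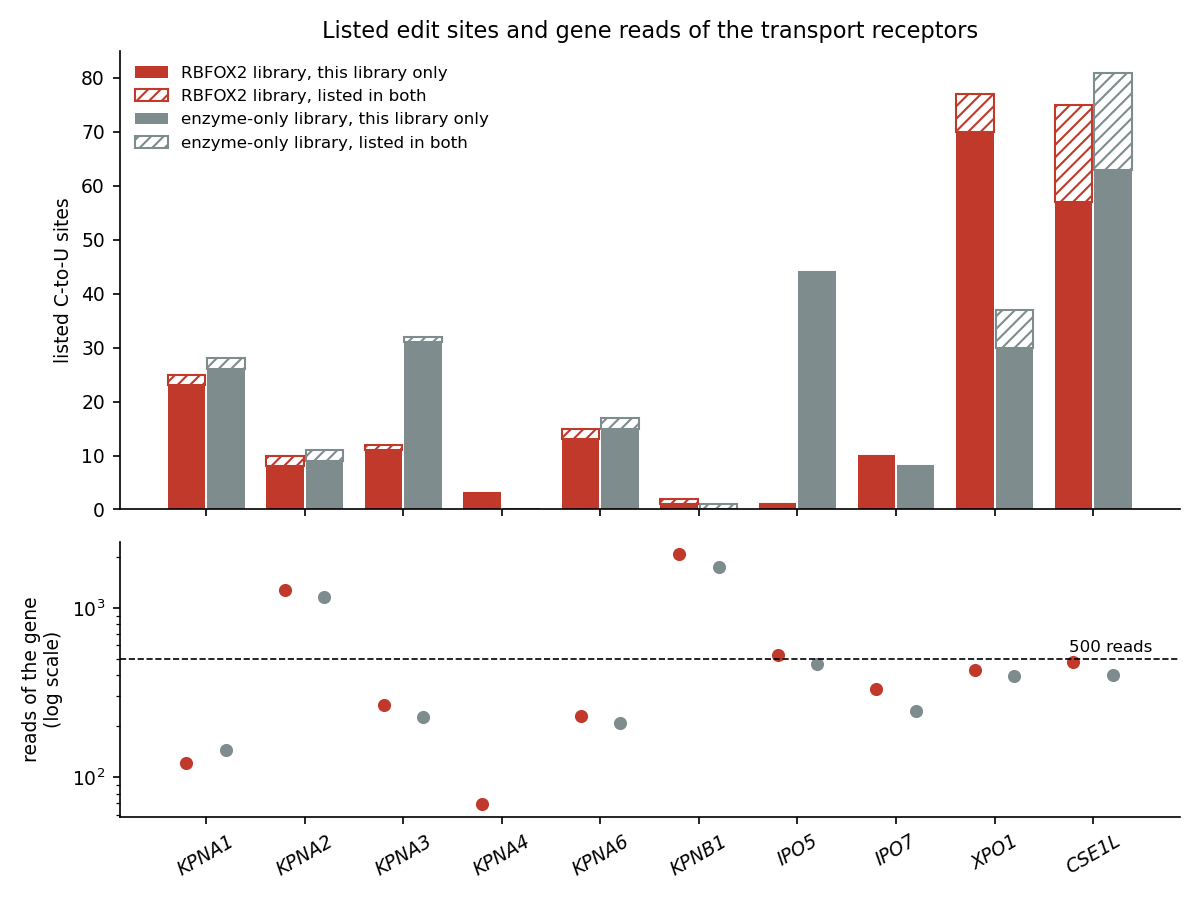
Listed C-to-U sites per gene (top, bars, hatched parts are sites listed in both libraries) and reads of the gene (bottom, points, log scale) in the RBFOX2 and enzyme-only libraries. XPO1 had 77 sites against 37, KPNA3 12 against 32 and IPO5 1 against 44, and the reads of each gene lay close together in both libraries except for KPNA4, which has no enzyme-only value.

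Sites were compared as a scaled log2 ratio: the number of sites of a gene listed in the RBFOX2 library but not in the control, over the number listed the other way round, with 0.5 added to each and divided by the library totals of such sites, 109357 and 91111. Of the 10 members, 6 had at least 20 such unshared sites. None of the 6 had a log2 ratio over 1, where 16.8% of the 3604 genes with at least 20 sites did. KPNA3 and IPO5 had a ratio under -1, where 14.6% of those genes did. The median ratio was -0.45 over the 6 members and 0.08 over the 3604 genes. When the same minimum of converted reads was applied to both libraries, 5 members kept at least 20 sites and 1 of them, KPNA3, was under -1, beside 12.9% of 3471 genes under -1 and 15.9% over 1.

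**Figure D2:**
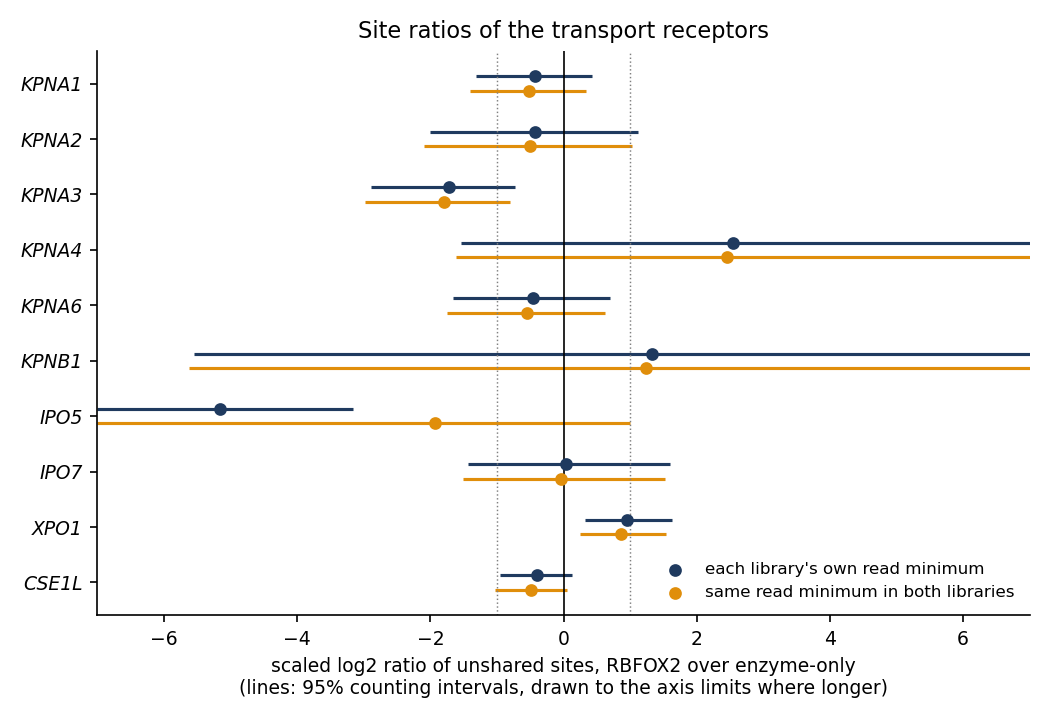
Scaled log2 ratio of unshared sites (horizontal axis, RBFOX2 over enzyme-only) for each gene, with 95% counting intervals as lines, drawn to the axis limits where they run further, under each library's own read minimum and under the same minimum in both. The intervals of XPO1 and KPNA3 lie on opposite sides of 0 under both minimums, and that of IPO5 crosses 0 under the same minimum.

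Among the importin alpha adaptors, KPNA3 was the member whose sites leaned to the control. KPNA3 (chromosome 13, 49699309 to 49793053, minus strand) had 265 reads in the RBFOX2 library against 228 in the control. It had 12 sites in the RBFOX2 library and 32 in the control, of which 1 was shared, and every one of them rested on 1 converted read. The log2 ratio was -1.72 (-2.90 to -0.73), and 94.0% of the 3604 genes had a higher one. Both libraries were below 500 reads, so the read minimum was 1 in each. The terminal exon 17, which holds the 3'UTR, carried 5 of the unshared RBFOX2 sites and 17 of the unshared control sites. Around its UGCAUG shown above, 1 RBFOX2 site and 3 control sites lay within 50 nt.

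KPNA1 and KPNA6 had close to the same number of sites in both libraries. KPNA1 (chromosome 3, 122424458 to 122514939, minus strand) had 25 sites on 121 reads in the RBFOX2 library and 28 on 144 reads in the control, a log2 ratio of -0.44 (-1.32 to 0.43). One of its 2 shared sites, at position 122426105 in the 3'UTR, had 10 converted reads in each library, which is 8.26% of the gene reads of the RBFOX2 library and 6.94% of those of the control. These were the highest edit fractions of any member site. KPNA6 (chromosome 1, 32108056 to 32173173, plus strand) had 15 sites on 229 reads against 17 on 208 reads, a ratio of -0.46 (-1.66 to 0.70). Its locus overlaps 2 annotated genes. With sites assigned by position in annotated exons, KPNA6 had 15 RBFOX2 sites and 22 control sites. In the 3'UTR, which holds 56.2% of its exonic cytosines, lay 12 of 13 unshared RBFOX2 sites and 12 of 15 unshared control sites.

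KPNA2, an adaptor abundant in dividing cells, was among the deeper members and its sites therefore needed 3 converted reads in both libraries. KPNA2 (chromosome 17, 68035733 to 68047685, plus strand) had 10 sites on 1267 reads in the RBFOX2 library and 11 on 1154 reads in the control, a log2 ratio of -0.42 (-2.01 to 1.11). Of the unshared sites, 5 of 8 in the RBFOX2 library and 2 of 9 in the control were in the 3'UTR. Over all annotated transcripts of the gene, 3'UTR holds 18.1% of the exonic cytosines. The 3'UTR of the reference transcript alone is 258 nt long, and the whole of its exon 11 holds 70 of the 772 exonic cytosines. The strongest RBFOX2 site, in the terminal exon 11, had 8 converted reads (0.631% of the gene reads) and was not listed in the control. A neighbouring site in the coding sequence of the same exon, at position 68046590, had 4 converted reads in each. No UGCAUG lay within 50 nt of a listed site of KPNA2.

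For 5 members, the RBFOX2 site with the most converted reads is shown with 14 bases on either side of the edited cytosine, which is in capitals.
KPNA1 exon 14, 3'UTR, 10 converted reads in each library, chr3:122426091-122426119 (minus): aaaaaaactaaggaCgaaaaaaccctcca
KPNA2 exon 11, 3'UTR, 8 converted reads against none listed, chr17:68046598-68046626 (plus): tcatgtagctgagaCataaatttgttgtg
KPNB1 exon 20, coding, 7 converted reads against none listed, chr17:47680113-47680141 (plus): cttgtgctgctggaCtaatagggtaagtt
XPO1 exon 25, 3'UTR, 5 against 2 converted reads, chr2:61478236-61478264 (minus): ccattgtaaagcgaCttcaaaaatatggg
CSE1L exon 22, coding, 5 against 1 converted reads, chr20:49092076-49092104 (plus): taaaatatggggcaCtagcactacaagaa
In each of these the base directly 5' of the edited cytosine was A. The bases after position 47680134 in the KPNB1 line are intronic in the reference transcript.

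KPNA4 (chromosome 3, 160513274 to 160565571, minus strand) was the shallowest member, with 69 reads and 3 sites of 1 converted read each in the RBFOX2 library. It was not listed in the control table, which gives no read number there. Its ratio of 2.54 has a lower bound of -1.54 and no upper bound.

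The importin beta carriers had few sites except for IPO5 in the control. KPNB1 (chromosome 17, 47649827 to 47683638, plus strand), the carrier of the adaptors and the member with the most reads, had 2072 reads in the RBFOX2 library, where 5 converted reads were needed, and 1746 in the control, where 4 were needed. The tables listed 2 sites for the RBFOX2 library and 1 for the control. The site listed in both, at position 47676443 in the coding sequence, had 5 converted reads in the RBFOX2 library against 4 in the control. The site at position 47680127, with 7 converted reads (0.338% of the gene reads), was listed in the RBFOX2 library alone.

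IPO5 (chromosome 13, 97976639 to 98024295, plus strand), an importer of ribosomal proteins and histones, had 528 reads in the RBFOX2 library against 466 in the control, on either side of the limit of 500 reads. It had 1 site of 2 converted reads in the RBFOX2 library and 44 sites in the control. The log2 ratio was -5.15 (-11.06 to -3.17). With the same minimum of 2 converted reads in both libraries, 1 RBFOX2 site stood against 4 control sites and the ratio was -1.93 (-7.97 to 0.99), an interval that includes 0. The sites with the most converted reads in the control, at positions 98022300 and 98022307 in the 3'UTR, had 3 each. IPO7 (chromosome 11, 9384652 to 9448126, plus strand), which also imports ribosomal proteins, had 10 sites on 330 reads against 8 on 245 reads, none of them shared and each with 1 converted read. Its ratio was 0.04 (-1.43 to 1.60).

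XPO1, the exportin that recognises leucine-rich export signals, was the member with the most RBFOX2 sites. XPO1 (chromosome 2, 61477618 to 61538297, minus strand) had 430 reads in the RBFOX2 library against 398 in the control, so that 1 converted read was enough in both. It had 77 sites against 37, which is 179 sites per 1000 gene reads in the RBFOX2 library against 93.0 in the control, and 7 sites were shared. The log2 ratio of the 70 and 30 unshared sites was 0.95 (0.32 to 1.63), just under the limit of 1, and 17.9% of the 3604 genes had a higher one. Divided by the reads of the gene in place of the library totals, the ratio was 1.10. Sites with at least 2 converted reads, shared ones included, numbered 12 in the RBFOX2 library and 4 in the control. Without the shared ones they numbered 10 and 2, a log2 ratio of 1.21 (-0.77 to 4.69), an interval that includes 0.

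The sites of XPO1 were concentrated in the 3' part of the transcript in both libraries. Exon 25, which ends the transcript, held 26 unshared RBFOX2 sites and 12 unshared control sites among 171 cytosines. Exon 22 held 10 against 3 among 28 cytosines, and exon 21 held 7 against 0 among 38. Exon 17 went the other way, with 0 RBFOX2 sites and 4 control sites. By region, coding sequence held 47 and 19 of the unshared sites and the 3'UTR 22 and 11. Read as a change of the genomic codon, the coding sites of the RBFOX2 library would leave the amino acid unchanged at 12, change it at 32 and create a stop codon at 3, and those of the control at 4, 9 and 6.

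**Figure D3:**
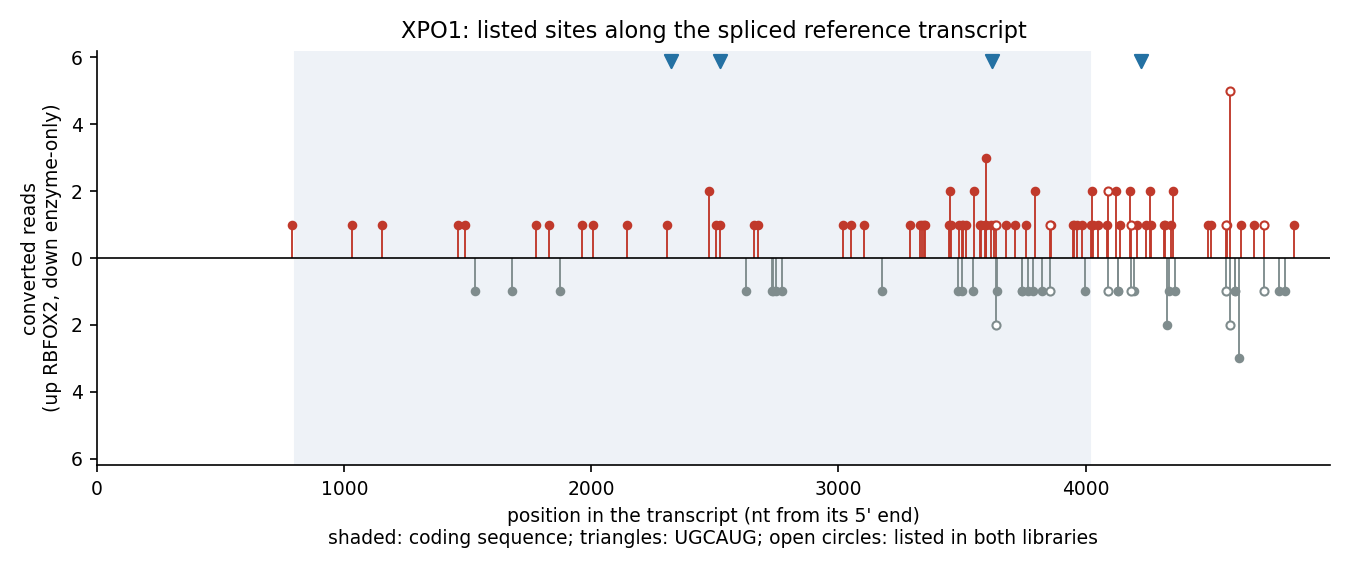
Converted reads at each listed XPO1 site (vertical axis, RBFOX2 upward and enzyme-only downward, number of reads) along the spliced reference transcript (horizontal axis, nt from its 5' end), with the coding sequence shaded, UGCAUG elements as triangles and sites listed in both libraries as open circles. RBFOX2 sites gather on both sides of the element in exon 23 and around the one in exon 25, while the site with 5 converted reads lies in the 3'UTR away from any element.

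Sites close to UGCAUG lay mostly in XPO1. Of 197 unshared exonic RBFOX2 sites of the members, 12 lay within 50 nt of an exonic or intronic UGCAUG on the same strand of the genome, a share of 6.09% (3.19 to 10.4), where 2.70% would be expected from all exonic cytosines of the same genes. The observed share was 2.26 (1.18 to 3.85) times the expected one. With a window of 20 nt the ratio was 3.13 (1.36 to 6.04), and with 200 nt it was 1.28 (0.880 to 1.78), an interval that includes 1. In the control 7 of 225 sites lay that close, 3.11% (1.26 to 6.30) against 2.23% expected, a ratio of 1.40 (0.565 to 2.83), and the intervals of the libraries overlap. Over all genes the ratios were 1.53 in the RBFOX2 library and 0.951 in the control. XPO1 accounted for 11 of the 12 member sites. In XPO1 alone, 11 of 70 RBFOX2 sites were near the motif, 15.7% (8.11 to 26.4) against 4.31% expected, a ratio of 3.65 (1.88 to 6.13), and 2 of 30 control sites were, a ratio of 1.55 (0.190 to 5.13). Without XPO1, 1 of 127 RBFOX2 sites remained near the motif, a ratio of 0.434 (0.011 to 2.37).

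The 4 exonic elements of XPO1 differed in the sites around them, counted here with the sites listed in both libraries. The element in exon 25, in the 3'UTR, had 6 RBFOX2 sites within 50 nt, with 8 converted reads, and 2 control sites, with 2 converted reads, of which 1 was listed in both. The element in exon 15 ends at the last base of its exon, next to the 5' splice site, and had 3 RBFOX2 sites and 0 control sites. One of those 3, at position 61492328, is the cytosine of the element itself. The element in exon 14 had 1 RBFOX2 site and 0 control sites. The element in exon 23 had 3 RBFOX2 sites and 2 control sites within 50 nt of genomic sequence, of which 1 was shared, with 3 converted reads in each library. The RBFOX2 sites at the elements in exons 15 and 14 had 4 and 1 converted reads. Within 50 nt, the elements in exons 25, 23, 15 and 14 had 14, 6, 10 and 11 exonic cytosines.

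Measured along the spliced transcript, the element in exon 23 had more RBFOX2 sites, because it lies close to the start of its exon. Another 5 sites, all at the end of exon 22 and all listed in the RBFOX2 library alone, were 24, 26, 30, 44 and 49 nt 5' of it. The nearest, at position 61482971, had 3 converted reads, the most of any unshared RBFOX2 site of XPO1. The 30 bases from that cytosine through the element are shown as spliced, 15 from exon 22 and 15 from exon 23.
XPO1 exons 22 and 23, chr2:61482957-61482971 joined to chr2:61482525-61482539 (minus): CttcacatactgctggtttaaCaaTGCATG
By spliced distance, 16 of the 70 RBFOX2 sites of XPO1 lay within 50 nt of the motif, 22.9% (13.7 to 34.4) against 6.63% expected, a ratio of 3.45 (2.06 to 5.20). The same 2 of 30 control sites did, a ratio of 1.01 (0.123 to 3.33). This expected share, too, takes no account of the concentration of the sites in the 3' part. Spliced distance was chosen after these sites had been seen. No member site within 50 nt of UGCAUG had 5 or more converted reads.

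The isoform models of the other members held fewer elements. KPNA1 and KPNA6 had 0 exonic UGCAUG elements in their models, KPNA3 and KPNA4 had 2 each, and KPNA2, KPNB1, IPO5, IPO7 and CSE1L had 1 each. In the reference transcripts KPNA4 had 4, as XPO1 did, and KPNA1 and KPNA6 had 1 each. CSE1L had 0 of 57 RBFOX2 sites near the motif, which allows a share of up to 6.27%, and 0 of 63 control sites, which allows up to 5.69%, against 1.84% expected. The elements of IPO5 and IPO7 had 1 control site each within 50 nt and 0 RBFOX2 sites.

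CSE1L, the exportin of the importin alpha adaptors, had nearly as many RBFOX2 sites as XPO1 and more sites than XPO1 in the control. CSE1L (chromosome 20, 49046309 to 49096958, plus strand) had 75 sites on 476 reads in the RBFOX2 library and 81 on 399 reads in the control, and shared 18, the most of any member. Its log2 ratio was -0.41 (-0.95 to 0.13). The 2 exportins were similar in depth, and the intervals of their ratios do not overlap. Coding sequence held 49 of 57 unshared RBFOX2 sites and 52 of 63 unshared control sites of CSE1L. The counts along its transcript were uneven: exon 22 had 4 RBFOX2 sites and 0 control sites, exon 23 had 5 and 1, and exon 24 had 6 and 11. The strongest RBFOX2 site, at position 49092090 in exon 22, had 5 converted reads against 1 in the control, and the next, at position 49094240 in exon 23, had 4 against none listed.

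**Figure D4:**
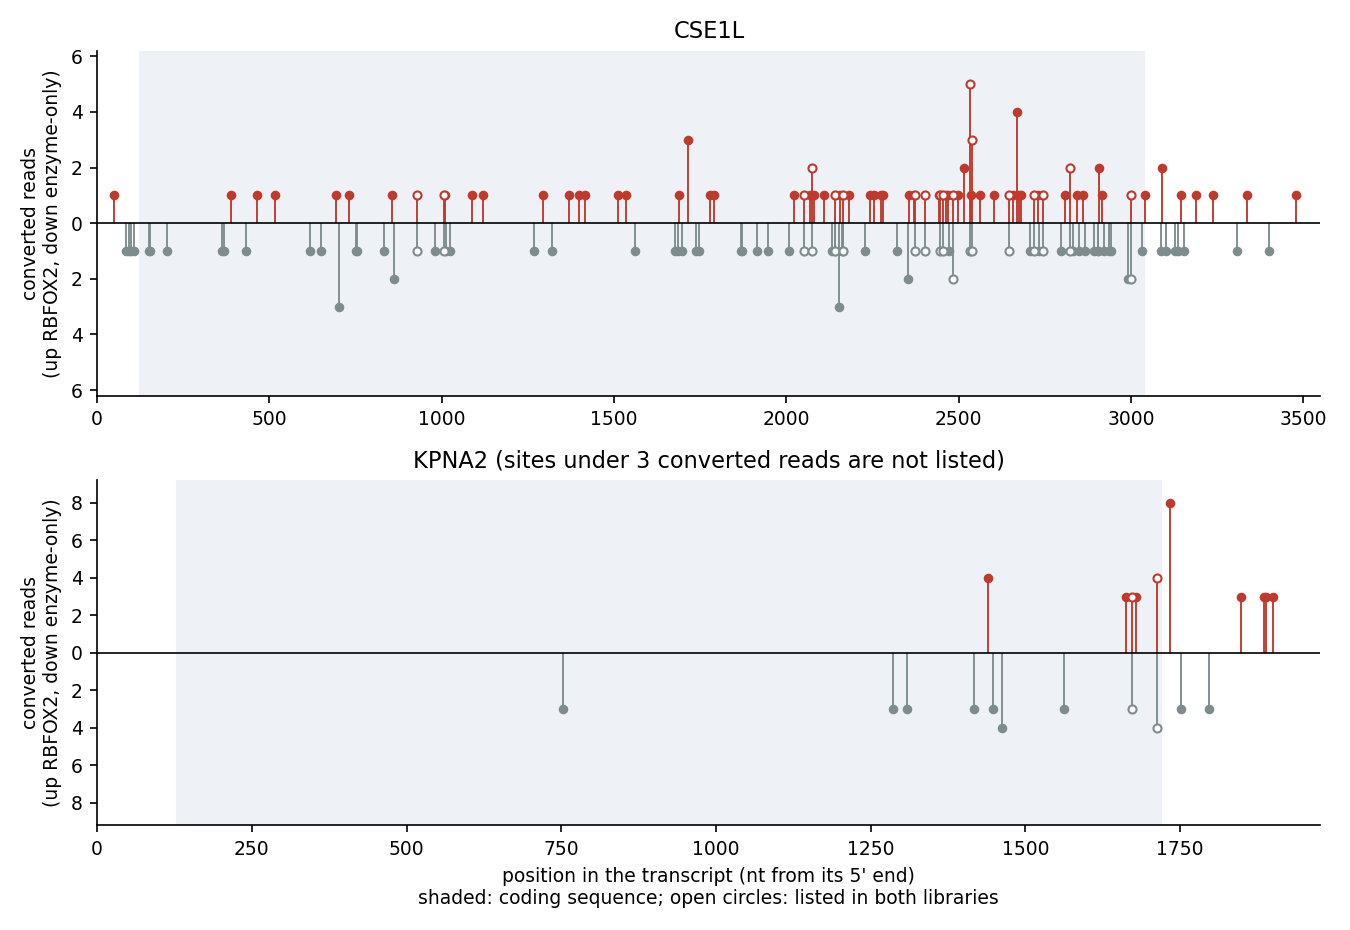
Converted reads at each listed site of CSE1L (top) and KPNA2 (bottom), RBFOX2 upward and enzyme-only downward (number of reads), along the spliced reference transcript (nt from its 5' end), with the coding sequence shaded and sites listed in both libraries as open circles. CSE1L carries sites of both libraries along its coding sequence, and in KPNA2 the site with 8 converted reads lies just past the stop codon.

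The bases next to the edited cytosines showed the known preference of APOBEC1 for A or U before its target in both libraries alike. A or U stood there at 79.7% (73.4 to 85.1) of unshared RBFOX2 sites of the members and 77.9% (71.9 to 83.1) of control sites, against 51.9% of their exonic cytosines. Over all genes the shares were 71.7% and 63.8%, against 44.3% of exonic cytosines. XPO1 had 62 of 70 RBFOX2 sites and 22 of 30 control sites in this context, and 54.2% of its exonic cytosines are in it.

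The 3'UTR held 39.1% (32.2 to 46.3) of the unshared RBFOX2 sites of the members and 37.6% (31.3 to 44.3) of the control sites, against 30.5% of their exonic cytosines. That last share pools the cytosines of all members. Unlike the expected share near UGCAUG, it is not averaged over the sites of each library. When positions annotated both as coding and as 3'UTR were counted as 3'UTR, the shares were 67.5% (60.5 to 74.0) and 53.5% (46.8 to 60.2). The 30.5% of exonic cytosines counts coding sequence first, so it is no baseline for these shares. The intervals of the libraries do not overlap, but the genes behind the pooled shares differ between the libraries. XPO1 held 47 of the coding RBFOX2 sites and 19 of the coding control sites, and IPO5, with its unequal read minimum, held 0 and 24. Whether the gap is one of region or of gene was not tested. Counted first, as in the main setting, coding sequence held 57.9% and 59.7%. Along the reference transcripts, the stretch up to 25% of the length from the 5' end held 10.3% (6.41 to 15.5) of RBFOX2 sites and 18.2% (13.4 to 23.9) of control sites, with overlapping intervals. Of 114 coding RBFOX2 sites, 34 would be synonymous, 69 would change an amino acid and 11 would create a stop codon, and of 135 coding control sites the numbers were 51, 73 and 11. These are shares of 29.8%, 60.5% and 9.65% in the RBFOX2 library and 37.8%, 54.1% and 8.15% in the control. Over all coding cytosines of the members the shares were 35.6%, 53.5% and 10.9%. Support by at least 2 converted reads was found for 12.7% (8.38 to 18.2) of unshared RBFOX2 sites and 8.85% (5.49 to 13.3) of control sites, beside 14.3% and 9.45% over all genes. In the members under 500 reads, where a single converted read is enough for a listing, the shares were 8.02% (4.56 to 12.9) and 5.07% (2.56 to 8.89), beside 6.95% and 4.48% over all such genes.

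The study summarised editing per isoform as editsC, the share of exonic cytosines that were edited. A related measure was computed here from all listed sites, with sites listed in both libraries kept and without assigning reads to isoforms, so it is not the study's own measure. Over the merged exons of a gene, editsC was 8.09% (6.44 to 10.01) in the RBFOX2 library and 3.89% (2.75 to 5.32) in the control for XPO1, and 6.58% and 7.11% for CSE1L. It was 1.26% (0.655 to 2.20) and 3.37% (2.32 to 4.73) for KPNA3. It was 0.164% and 0.0822% for KPNB1, and 0.0805% and 3.46% for IPO5, of whose 44 control sites 4 remained with the same read minimum in both.

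All 35 isoform models of XPO1 had a higher editsC in the RBFOX2 library, where the median was 14.8% (range 1.09 to 24.2) against 6.84% (0 to 12.1). The highest was PB.6331.33, a model of 4 exons at the 3' end of the gene with 30 RBFOX2 sites and 15 control sites among 124 cytosines, and the lowest was PB.6331.44, a model of 7 exons at the 5' end with 3 and 0 among 275. Of the 73 models of CSE1L, 31 had the higher value in the RBFOX2 library and 33 in the control. None of the 16 models of KPNA3 was higher in the RBFOX2 library and 15 were lower. In KPNA1 2 models were higher and 21 lower, in IPO7 17 were higher and 1 lower. Reads were not assigned to isoforms in these tables, so models of a gene share sites and are not independent. The value of a model therefore also depends on which part of the gene its exons cover.

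**Figure D5:**
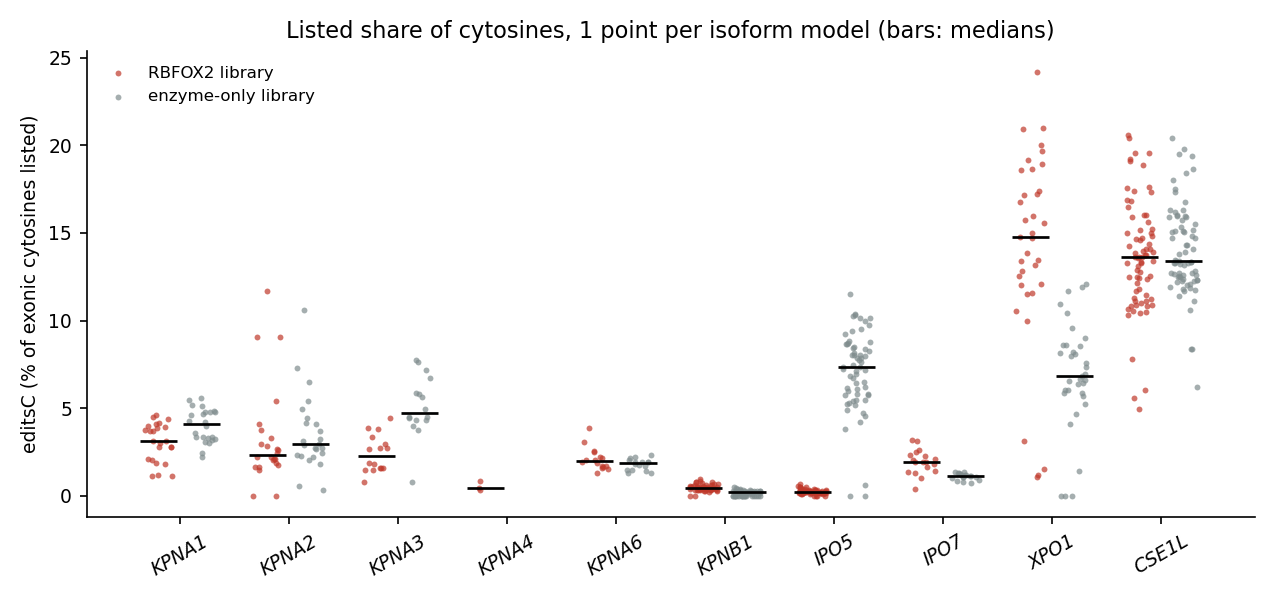
EditsC (vertical axis, percent of exonic cytosines listed as edited) of each isoform model, 1 point per model, in the RBFOX2 and enzyme-only libraries, with medians as bars. The XPO1 medians are 14.8% and 6.84%, those of CSE1L 13.6% and 13.4%, and those of KPNA3 2.28% and 4.72%.

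Other genes of nuclear transport were counted from a list of 25 importins, exportins and regulators of Ran, of which 23 were listed and 12 had at least 20 unshared sites. Of these 12, 1 was over 1 on the log2 scale and 2 were under -1, beside 16.8% and 14.6% of all genes, and the median was -0.28. XPO6, an exportin of actin, had 16 unshared RBFOX2 sites and 4 control sites on 178 and 138 reads, a ratio of 1.61 (0.10 to 3.78). SNUPN, the adaptor that imports spliceosomal small nuclear RNPs, had 9 and 23 on 169 and 145 reads, a ratio of -1.57 (-2.91 to -0.45). RANGAP1, which activates the GTPase of Ran, had 3 and 43 on 552 and 492 reads, a ratio of -3.90, and once the read minimum was made equal 3 sites stood against 3, a ratio of -0.35.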

How the data were processed

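Per the labels, the kit was the PacBio SMRTbell kit for Iso-Seq. Per the methods of the study, the authors mapped full-length reads to hg38 and ran their own edit caller. Those methods name another library kit than the labels, so the tables may come from another run. The authors deposited, site by site, a count of converted reads, the count of reads of its gene (1 value per gene and library), an edit fraction equal to their quotient and a confidence score, which was not used. The fraction therefore understates editing where reads do not cover the position. A deposited table of 119827 isoform models gave exon positions.

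Symbols and regions came from GENCODE 44 (bedtools 2.31.1), with coding sequence before 3'UTR. The reference transcript of a gene was its MANE Select transcript. Shared sites, those in both tables, were left out except where stated. UGCAUG was searched on the transcribed strand. Expected shares near it are the share of each gene's exonic cytosines within 50 nt, averaged over the sites. Intervals came from scipy 1.17.1. The calculations were tested on simulated sites. All members were named, and for sites those with the most converted reads in each library. Of the numbered exons of XPO1 and CSE1L, those described were chosen after their values were seen. The members and lists were chosen with earlier results of these data known. The alternatives changed the read minimum, scaling, pseudocount, window, motif and regions. One result of the marker list is not reported here.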

Additional observations from a re-analysis of the deposited data

How the results depend on the processing

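No paired analysis was possible because each group was 1 library and the labels number them 2 and 1. The number of members with a log2 ratio under -1 was 2, and it was 1 once both libraries had the same read minimum, where IPO5 no longer had enough sites, and 0 among the 2 members with at least 50 sites. The number over 1 was 0, and 1 of 6, XPO1, when scaled by gene reads, where 19.9% of 3594 genes were over 1. IPO5 moved to -1.93 with the same read minimum and to -2.45 at sites of 2 or more converted reads. The observed over expected ratio near UGCAUG ranged from 0.434, without XPO1, to 2.81 for RBFOX2 sites, and from 1.16 to 1.82 for control sites, when each gene was left out in turn. Restricted to 2 or more converted reads, with 25 RBFOX2 sites and 20 control sites left, it was 4.37 (0.928 to 11.4) and 0 (0 to 8.99). Both intervals include 1, and they overlap. At the same sites A or U stood 5' of 88.0% and 100%, and the 3'UTR held 48.0% of the RBFOX2 sites. With windows of 20 and 200 nt the ratio was 3.13 and 1.28 (0.880 to 1.78) for RBFOX2 sites, the latter with an interval that includes 1, and 1.91 and 1.12 for control sites. Counting positions annotated both ways as 3'UTR gave 67.5% and 53.5%. With all GENCODE exons in place of isoform models, editsC in the RBFOX2 library and the control was 1.42% and 1.66% for KPNA1, 0.836% and 0.947% for KPNA6, 1.69% and 0.813% for XPO1 and 9.87% and 10.7% for CSE1L, and it was 2.20% for IPO5 in the control. The cause of these moves was not tested. The others, with the windows 76 values of comparisons and 42 of single genes, stayed within the counting interval of the reported value or, for counts, within 1.5 times. Depth limits KPNA4, with 69 reads in 1 library, and KPNB1 and KPNA2, where sites of 1 converted read are not listed.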
